A study of Rattus norvegicus with 102 samples.

Results

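Potassium channel genes were taken as every gene whose symbol begins with Kcn, which are the pore-forming and helper subunits of potassium channels. The tables listed 97 such rows under 94 symbols among 26284 genes in the Illumina table, since Kcnk13, Kcnk6 and Kcnn2 each stood under more than 1 Ensembl identifier. The RNA came from CA1, CA3 and the dentate gyrus (DG), the subfields of the hippocampus, dissected from male Fischer 344 rats, an inbred strain. Young rats (n = 10, 5 to 6 months), old unimpaired rats (n = 12) and old impaired rats (n = 12, both 17 to 22 months) each gave 1 library per subfield. Impairment had been judged in a water maze, a test of spatial memory whose scores were not used here. The labels give no engineered allele and no drug treatment, and all rats were anaesthetised with isoflurane before the tissue was taken. Both poly-A tables (Illumina and Ion Proton) and a further table named WT each held 3 libraries from every one of the same 34 rats. Values are normalised counts, which are gene counts divided by a size factor per library.

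Potassium channels let potassium leave the cell and so set the resting potential, shape the action potential and limit repetitive firing. Voltage-gated channels of the Kcna, Kcnb, Kcnc, Kcnd, Kcnh and Kcnq families open on depolarization, and Kcnf, Kcng, Kcns and Kcnv subunits are silent alone but join Kcnb subunits. Kcnab, Kcnip, Kcne and Kcnmb proteins are helpers that bind a pore subunit. Kcnj channels rectify inwardly, Kcnk channels carry a leak current, Kcnn and Kcnma1 channels respond to calcium, and Kcnt channels respond to sodium. In the hippocampus, Kcnd channels carry a dendritic A-type current, Kcnq channels the M-current, and Kcnj3, Kcnj6 and Kcnj9 the current opened by G proteins.

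Promoter sequences are shown for the genes that led the higher members of each subfield, Kcnh7 for CA1, Kcnk16 for CA3 and Kcnh8 for DG. Each run is the 150 bases before the annotated start in RefSeq (build GRCr8), written 5′ to 3′ on the gene's strand, with matches to the GC box GGGCGG on either strand in capitals.
Kcnh7 (minus strand, chr3:68230672-68230821): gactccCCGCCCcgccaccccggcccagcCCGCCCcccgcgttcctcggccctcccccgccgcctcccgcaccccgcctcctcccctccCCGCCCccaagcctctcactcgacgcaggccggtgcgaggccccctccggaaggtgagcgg
Kcnk16 (plus strand, chr15:4091541-4091690): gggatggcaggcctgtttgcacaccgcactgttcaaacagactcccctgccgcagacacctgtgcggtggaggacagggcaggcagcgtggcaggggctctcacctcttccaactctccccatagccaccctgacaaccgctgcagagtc
Kcnh8 (plus strand, chr9:5742533-5742682): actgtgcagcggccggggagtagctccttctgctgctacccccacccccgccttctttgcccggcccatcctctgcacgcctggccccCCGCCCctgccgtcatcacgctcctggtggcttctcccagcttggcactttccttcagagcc
The Kcnh7 run held 3 matches, the Kcnh8 run held 1 and the Kcnk16 run held 0. A promoter was found for 62 of the 94 symbols, and in the 250 bases before the start 30 of them (48.4%) held a GC box, against 32.4% of 27457 promoters. The CRE TGACGTCA was in 0 of the 62 and in 1.7% of all promoters. TATAAA was in the promoters of Kcnj1 and Kcnj13 (3.23%), against 13.1% of all promoters. A match describes the letters in this window and does not show a bound factor.

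Library totals ran from 3246922 to 42750899 reads in the Illumina table (median 10745742) and from 4470473 to 21434160 reads in the Ion Proton table (median 9738395). Summed markers of CA1, CA3 and DG neurons placed 10 libraries nearer to a subfield other than their label in both poly-A tables. These were 1 CA1, 5 CA3 and 4 DG libraries from 7 rats, of which 6 had numbers from 9000 up. In 2 of these rats a pair of libraries each lay nearer to the label of the other, CA3 and DG in 1 old impaired rat and CA1 and DG in 1 old unimpaired rat. The libraries were kept under their labels. Rat numbers fell into a series below 9000 (18 rats, of which 5 were young, 6 old unimpaired and 7 old impaired) and a series from 9000 (16 rats, of which 5, 6 and 5). The rats had been kept and tested at sites in Florida (FL, Taconic) and Arizona (AZ, Charles River). The series held 5 young and 13 old rats below 9000 and 5 young and 11 old rats from 9000, which are the numbers of FL and AZ rats that the methods give. No label ties a rat number to a site, so the series are called by their numbers here. Values within each series are given beside many of the results that turn on them.

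A total of 79 members had a mean of at least 10 normalised counts in the Illumina table and were tested. The other 18 were Kcna10, Kcna7, Kcne1, Kcne3, Kcnip2, Kcnj1, Kcnj15, Kcnk18, both Kcnk6 rows, Kcnk7, Kcnmb1, Kcnmb3, Kcnn4, Kcnu1, Kcnv2 and 1 row each of Kcnk13 and Kcnn2. Kcnip2, which encodes a helper of Kcnd channels, averaged 0.911 normalised counts in the Illumina table, 0.383 in the WT table and 499 in the Ion Proton table. The Kcnn2 row ENSRNOG00000050774 averaged 0.268 in the Illumina table and 37.4 in the Ion Proton table. These rows were therefore not comparable between tables, and neither was counted in any comparison.

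The first comparison asked which members differed between subfields, whatever the age and cognition of the rat. A member was called when its adjusted p was under 0.05 in both poly-A tables with the same direction. Between CA1 and CA3, 26 of 79 members were called (18 higher and 8 lower in CA1), or 32.9% against 14.1% of the 14179 genes tested. Between CA1 and DG, 39 were called (16 higher and 23 lower in CA1), 49.4% against 26.4% of all genes. Between CA3 and DG, 39 were called (13 higher and 26 lower in CA3), 49.4% against 27.9%. The median size of the log2 difference was 0.285, 0.375 and 0.366 over the tested members in the same order, against 0.091, 0.133 and 0.135 over all genes tested. In all, 57 members were called in at least 1 comparison (72.2%, against 41.8% of all genes), and 12 of them had a difference of 2-fold or more (15.2% of 79, against 4.02%). The member differences of the Illumina and Ion Proton tables had a Pearson r of 0.957, 0.95 and 0.977 over 78 members. Both tables measured the same RNA, so this bears on the sequencing and not on the animals.

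**Figure D1:**
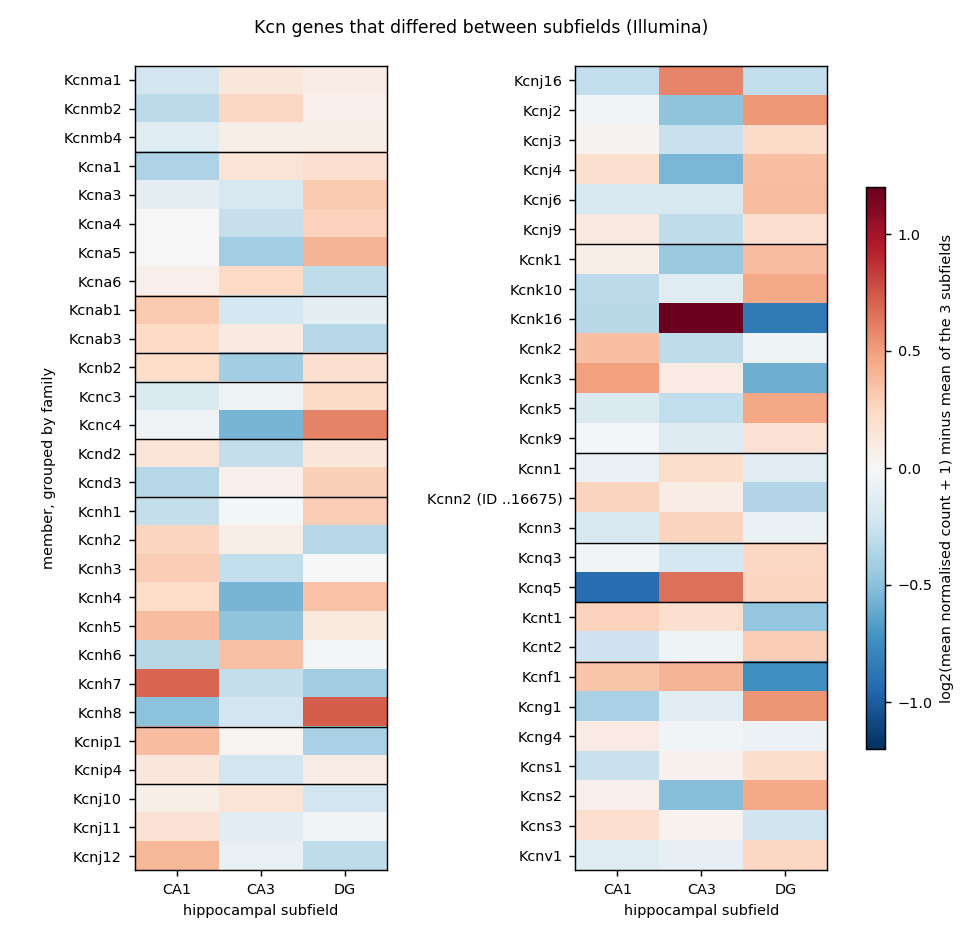
Each row is a member called between subfields, with some not drawn, grouped by family, and each column a subfield. Colour gives log2 of the mean normalised count plus 1 (Illumina, n = 34 rats) minus the mean of the 3 subfields, with red above and blue below it. More rows are red in DG than in CA3, where 26 of the 39 members called between CA3 and DG were lower.

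Calls in 1 direction against both other subfields marked a member as specific, and 41 members met this (51.9%, against 24.0% of all genes). In CA1, 7 were higher (8.86% of 79, against 2.37% of all genes) and 5 lower (6.33% against 3.23%). In CA3, 3 were higher (3.8% against 2.48%) and 12 lower (15.2% against 3.69%). In DG, 14 were higher (17.7% against 6.97%) and 6 lower (7.59% against 7.86%). With the WT table in place of Ion Proton, the 12 specific to CA1 became 20. From 9000, 3 were specific to CA1 and 5 to CA3 in place of 15, and below 9000, 13 to DG in place of 20. Without the 10 libraries nearer to another subfield, 15, 20 and 23 were specific to CA1, CA3 and DG. In bulk tissue, fewer cells of a type and less RNA per cell cannot be told apart.

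Kcnh7 (chromosome 3) encodes an Erg channel, a voltage-gated channel that deactivates slowly, and it led the members higher in CA1. Its normalised counts ran from 62.5 through a median of 277 to 483 in CA1, from 50.5 through 114 to 459 in CA3 and from 63.7 through 110 to 335 in DG. Most CA1 libraries stood above the other subfields, but the ranges overlapped, and 30 of 34 rats had more in CA1 than in CA3. The log2 difference was 1.09 ± 0.146 (SE) from CA3 (adjusted p = 1.28e-09) and 1.14 ± 0.146 from DG (adjusted p = 1.41e-10). Against CA3 the difference was 1.62 in rats below 9000 and 0.51 in rats from 9000, and the series differed (adjusted p = 0.000387). Against DG it was 1.26 and 1.0.

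Kcnq5 (chromosome 9), a subunit of the M-channel, led the members lower in CA1. It ran from 296 through 549 to 1370 in CA1, from 396 through 2130 to 3070 in CA3 and from 892 through 1380 to 2060 in DG. CA1 libraries were low and DG libraries were intermediate, while CA3 libraries formed a high and a low set. The low set were rats from 9000, with 396 to 1560 (median 948), and the high set were rats below 9000, with 2080 to 3070 (median 2670), so the series did not overlap. CA1 was below CA3 by a log2 difference of -2.42 below 9000 and -0.32 from 9000 (adjusted p of the difference between series = 9.14e-18). Against DG, CA3 was higher below 9000 (1.02) and lower from 9000 (-0.69), each past the threshold in its series. The lower level of CA1 against DG had 1 direction in both series, at -1.4 and -1.0.

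Others among the members higher in CA1 were Kcnj12 and Kcnk2 (an inward rectifier and a mechanosensitive leak channel), Kcnh3 (an Elk channel of forebrain neurons), Kcnab1 (a helper of Kcna channels) and Kcnj11 (the pore of the ATP-sensitive channel). Kcnh3 in CA1 exceeded CA3 by 1.33 below 9000 and was at -0.02 against it from 9000 (adjusted p = 0.951). Kcnab1 ran from 1700 through 2610 to 3890 in CA1, against 1020 through 1880 to 2590 in CA3 and 1380 through 1970 to 2550 in DG. It was higher in CA1 than in CA3 in 32 of 34 rats, by 0.53 ± 0.0557 on the log2 scale (adjusted p = 2.1e-13), and higher than in DG by 0.42 (adjusted p = 5.79e-10). Within the series it was above CA3 by 0.68 and 0.37. Kcnj12 averaged 142 ± 34.1 (SD, n = 34) in CA1, 101 ± 41.6 in CA3 and 87.1 ± 32.9 in DG. CA1 was above DG in 33 of 34 rats. Kcnk2 averaged 283 ± 77.5 in CA1, 177 ± 109 in CA3 and 211 ± 38 in DG. For both, the lead over DG held 1 direction in each series, while the lead over CA3 was smaller from 9000, at 0.08 for Kcnj12 and 0.49 for Kcnk2.

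Members lower in CA1 beside Kcnq5 were Kcna1 (an axonal delayed rectifier), Kcnd3 (an A-type channel), Kcnma1 (the pore of the BK channel, opened by calcium and voltage) and Kcnmb4 (its neuronal helper). Kcnma1 ran from 400 through 657 to 974 in CA1, from 600 through 824 to 1410 in CA3 and from 588 through 816 to 991 in DG. It was lower in CA1 than in CA3 by 0.34 on the log2 scale, and 2 of 34 rats had more in CA1. Kcnmb4 averaged 543 ± 89 in CA1, 632 ± 115 in CA3 and 631 ± 62.2 in DG. The BK pore and this helper were thus both lower in CA1 against both other subfields, and their CA1 to DG differences had 1 direction in each series (-0.28 and -0.36 for Kcnma1, -0.2 and -0.25 for Kcnmb4). Kcnd3 averaged 281 ± 61.3 in CA1, 372 ± 83.3 in CA3 and 437 ± 73.5 in DG. CA1 was below CA3 by -0.28 and -0.53 and below DG by -0.66 and -0.63 in the series, and the call against CA3 was lost without 1 rat, with -0.43 to -0.38 over all rats left out in turn. More in CA1 than in DG was seen in 1 of 34 rats. Kcna1 averaged 439 ± 113 in CA1, 636 ± 220 in CA3 and 655 ± 99.7 in DG. Its CA1 to CA3 difference was -1.07 below 9000 and 0.16 from 9000, with the opposite sign. Either Kcna1 call was lost when 1 of 2 rats was left out (-0.53 to -0.46 against CA3 and -0.63 to -0.58 against DG over all rats left out in turn).

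Kcnk16 (chromosome 15), a leak channel known best from the pancreas, led the members higher in CA3. It ran from 0 through 34.2 to 112 normalised counts in CA3, from 1.17 through 8.44 to 53.1 in CA1 and from 0 through 2.34 to 40.5 in DG. In rats below 9000 the CA3 libraries (28.2 to 112, median 50.3) lay above every CA1 library (at most 12.7) and every DG library (at most 2.66). In rats from 9000 they ran from 0 to 51.8 (median 14.3), while CA1 ran from 1.65 to 53.1 (median 15.4) and DG from 2.89 to 40.5 (median 16.0), so the subfields overlapped. The CA3 to DG difference was 5.05 on the log2 scale below 9000 and -0.34 from 9000 (adjusted p of the difference between series = 6.25e-18). The difference over all rats, 2.51 ± 0.365 (adjusted p = 6.51e-09), therefore held in 1 series. All subfields moved between the series, with DG higher from 9000 by 3.25 (adjusted p = 5.24e-14), CA1 higher by 1.53 (adjusted p = 8.27e-05) and CA3 lower, at -2.13 (adjusted p = 1.17e-08). Counts were low, and the WT table held too few to test it.

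Kcnj16, an inward rectifier subunit of glia that pairs with Kcnj10, was higher on average in CA3 in both series. It ran from 93.4 through 329 to 642 in CA3, from 120 through 185 to 293 in CA1 and from 53.6 through 168 to 374 in DG. CA1 exceeded CA3 in 2 of 34 rats, and CA3 exceeded DG in 31. CA1 was below CA3 by -0.71 in rats below 9000 and -0.9 from 9000, and CA3 was above DG by 0.8 and 0.98, with no detectable difference between the series (adjusted p = 0.57 and 0.56). Against CA1 the Kcnj16 difference was called from 9000 alone, and against DG within both series. Its partner Kcnj10, the main astrocyte inward rectifier, averaged 956 ± 235 in CA1, 1020 ± 220 in CA3 and 775 ± 188 in DG. It was called between CA3 and DG (0.40). Summed astrocyte markers in CA3 had medians of 56782.3 below 9000 and 74094.0 from 9000, against 58086.7 and 76419.3 in CA1 and 55270.5 and 65495.9 in DG, and their part in these values was not tested. Kcnh6, another Erg channel, averaged 87.5 ± 23.1 in CA3 against 54.1 ± 14.7 in CA1 and 67.5 ± 17.1 in DG. Its lead over DG was 0.6 below 9000 and 0.07 from 9000 (adjusted p = 0.751), and CA1 was below CA3 by -0.95 and -0.34, a change between the series that was called (adjusted p = 0.00253). The call against DG was lost when either of 2 rats was left out (0.32 to 0.39).

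The 12 members lower in CA3 were led by Kcnj4, a strong inward rectifier of principal cells (chromosome 7). It ran from 91.8 through 459 to 1190 in CA3, from 514 through 837 to 1140 in CA1 and from 265 through 978 to 1350 in DG. Rats below 9000 had 91.8 to 480 (median 291) in CA3 and rats from 9000 had up to 1190 (median 699), with a narrow overlap. CA3 was below DG by -1.89 below 9000 and -0.08 from 9000 (adjusted p of the difference between series = 8.94e-14), so the called difference over all rats (-1.04 ± 0.137, adjusted p = 2.66e-10) was seen in the first series and not in the second. Kcnc4, a fast-inactivating Kv3 channel, had medians of 450 below and 938 from 9000 in CA3, and its CA1 to CA3 difference went from 1.31 to -0.14. Kcnh4 (an Elk channel) and Kcnk1 (the leak channel Twik1) showed the same order, with CA3 to DG differences of -1.77 and -0.2 for Kcnh4 and -1.21 and -0.44 for Kcnk1.

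Some members were lower on average in CA3 in each series, although none passed against both other subfields within both series. Kcns2, a silent subunit, ran from 59.8 through 120 to 323 in CA3, from 110 through 190 to 345 in CA1 and from 94.4 through 260 to 350 in DG. CA3 was below DG in all but 2 of 34 rats, by -1.05 in rats below 9000 and -0.96 from 9000. Against CA1 the Kcns2 difference was called from 9000 alone. Kcnd2, the main pore of the dendritic A-type current, ran from 370 through 667 to 1180 in CA3, from 574 through 886 to 1480 in CA1 and from 454 through 892 to 1190 in DG. It was the single member called between CA1 and CA3 within both series (0.41 and 0.51). Its difference from DG was called from 9000 alone. Kcnh5, an Eag channel, averaged 24.1 ± 24.8 in CA3 against 44.5 ± 24.6 in CA1, with a difference of 1.01 and 1.0 in the series. This was called below 9000 alone. Against DG, CA3 was at -0.89 below 9000 and -0.55 from 9000, which did not pass (adjusted p = 0.178).

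Members of the G-protein-gated current and the A-type channel were also among those lower in CA3. Kcnj3, a subunit common to most such channels, averaged 1100 ± 231 in CA3, 1360 ± 217 in CA1 and 1560 ± 247 in DG. Kcnj9 averaged 855 ± 187 in CA3, 1140 ± 178 in CA1 and 1220 ± 207 in DG. Kcnj6 was higher in DG, at 504 ± 119 against 340 ± 92.4 in CA1 and 339 ± 152 in CA3. From 9000 the difference of Kcnj9 was smaller, with CA1 against CA3 at 0.7 below and 0.11 from 9000 and CA3 against DG at -0.78 and -0.22, where the change was called (adjusted p = 1.55e-05). For Kcnj3 the series did not differ detectably (0.43 and 0.19, and -0.58 and -0.43). For Kcnj6, CA3 against DG was -0.4 below and -0.94 from 9000 and CA1 against CA3 was -0.26 and 0.45, and both changes were called. The 3 subunits had their highest mean in DG, with the difference to CA1 called for Kcnj3 (-0.19) and Kcnj6 (-0.58) and not for Kcnj9 (-0.10). Among A-type subunits, Kcna4 averaged 304 ± 101 in CA3, 367 ± 67.6 in CA1 and 447 ± 85.5 in DG. CA1 exceeded CA3 by 0.52 below 9000 and 0.05 from 9000, CA3 was below DG by -0.83 and -0.3, and both changes between the series were called. Kcnip4, a helper of Kcnd channels, averaged 291 ± 59.6 in CA3, 373 ± 64.4 in CA1 and 362 ± 40.4 in DG, with CA1 above CA3 by 0.29 and 0.44 in the series.

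Kcnh8, an Elk channel (chromosome 9), led the 14 members higher in DG. It ran from 10.1 through 42.8 to 66.4 in DG, from 4.85 through 19.1 to 36.4 in CA1 and from 0 through 19.7 to 57.2 in CA3. DG libraries were mostly above CA1 libraries, and CA1 exceeded DG in 1 of 34 rats. CA1 was below DG by -1.27 ± 0.197 (adjusted p = 4.67e-08), with -1.45 and -1.07 in the series, and CA3 was below DG by -1.23 ± 0.197 (adjusted p = 8.97e-08), with -0.8 and -1.71. Kcnh8 was specific to DG within each series. Of the 41 specific members, Kcnh2 was the other one to be specific to 1 subfield within each series.

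Of the other members higher in DG, Kcnj2 (a classical inward rectifier) ran from 33.9 through 101 to 151 in DG, against 26.7 through 70.8 to 118 in CA1 and 23.3 through 45.9 to 153 in CA3. Kcnk5, an acid-sensitive leak channel, ran from 26.4 through 52.8 to 67.4 in DG, against 14.2 through 33.3 to 49.1 in CA1 and 10.5 through 29.3 to 57.3 in CA3. DG stood above CA1 and CA3 on average in each series, but for Kcnj2 the difference from CA1 was called within neither (-0.69, and -0.4 with adjusted p = 0.0733 from 9000), and for Kcnk5 that from CA3 was called below 9000 alone (-1.02 and -0.61). Kcng1, a silent subunit, averaged 1310 ± 273 in DG, 694 ± 231 in CA1 and 826 ± 350 in CA3, and its lead over CA3 was 1.22 below 9000 but 0.23 from 9000 on the log2 scale. Kcnt2, a sodium-activated channel, averaged 540 ± 81.1 in DG, 371 ± 71.6 in CA1 and 426 ± 67.4 in CA3. In the series it was -0.59 and -0.51 in CA1 and -0.3 and -0.4 in CA3 against DG. Kcnc4 and Kcnk1, already described as lower in CA3, were also highest in DG, at means of 1580 ± 399 and 584 ± 112. For both, the lead of DG over CA1 was called below 9000 alone. The remaining members of the set were Kcnk10, Kcns2, Kcnj6, Kcnh1, Kcna4, Kcnv1 and Kcnj3. Of these, Kcnk10, Kcns2 and Kcna4 were specific to DG below 9000 alone. Kcnj6, Kcnh1 and Kcnv1 were so from 9000 alone, and Kcnj3 in neither series.

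Kcnf1, a silent subunit (chromosome 6), led the 6 members lower in DG. It ran from 23.8 through 88.6 to 400 in DG, from 47.7 through 226 to 464 in CA1 and from 8.94 through 243 to 537 in CA3. The ranges overlapped widely, and CA1 exceeded DG in 29 of 34 rats. CA1 was above DG by 1.42 below 9000 and 0.8 from 9000, whereas CA1 against CA3 changed sign, from 1.24 to -1.28 (adjusted p of the difference between series = 4.65e-06). CA3 exceeded DG by 0.18 below 9000 (adjusted p = 0.66) and by 2.08 from 9000, a called change (adjusted p = 0.00039), so the lower level of DG against CA3 passed in 1 series.

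Kcnh2, an Erg channel best known from the heart, ran from 248 through 340 to 517 in DG, from 387 through 546 to 685 in CA1 and from 357 through 477 to 566 in CA3. It was below CA1 by 0.72 and 0.49 and below CA3 by 0.45 and 0.41 on the log2 scale in rats below and from 9000. Kcnt1, the other sodium-activated channel, averaged 406 ± 217 in DG, 682 ± 229 in CA1 and 641 ± 309 in CA3, opposite in order to Kcnt2. CA3 exceeded DG by 0.05 in rats below 9000 (adjusted p = 0.787) and by 1.36 in rats from 9000. Kcnk3, an acid-sensitive leak channel, averaged 27.2 ± 18.5 in DG, 58.8 ± 20.5 in CA1 and 44.4 ± 24.3 in CA3. For it too, CA3 exceeded DG little below 9000 (0.15, adjusted p = 0.405) and more from 9000 (1.26). The lead of CA1 over DG was called within both series for Kcnt1 and Kcnk3. The other members of the set were Kcna6 and the Kcnn2 row ENSRNOG00000016675, each specific to DG below 9000 but not from 9000. For Kcna6 the change between the series in the CA3 to DG difference was called. The Kcnn2 row, an SK channel opened by calcium, averaged 260 ± 40 in DG, 399 ± 63.9 in CA1 and 353 ± 61 in CA3.

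**Figure D2:**
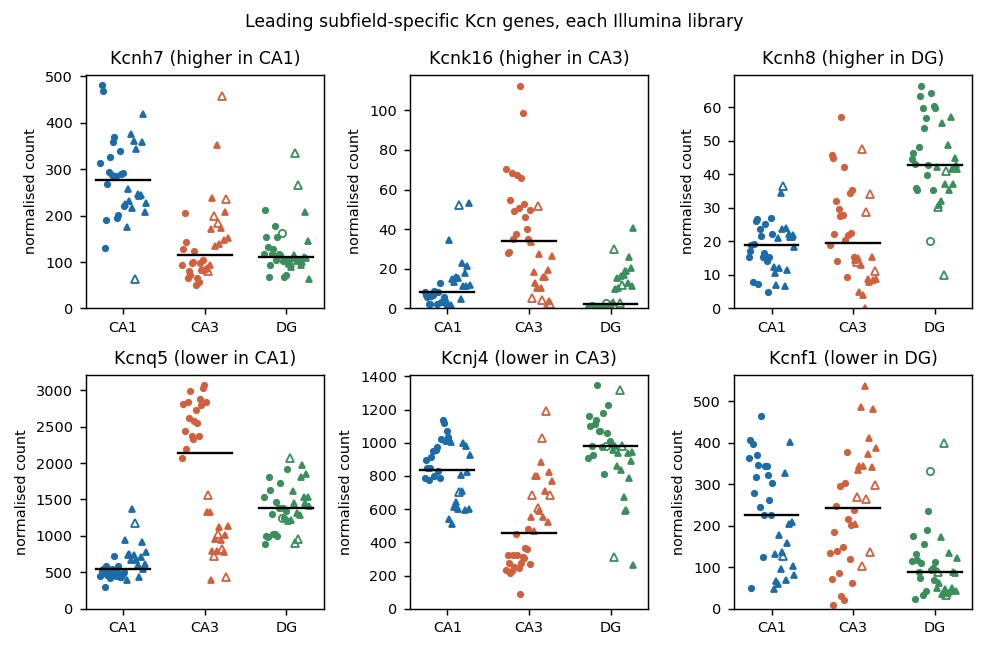
Normalised counts in each Illumina library of the leading member higher (top) and lower (bottom) in CA1, CA3 and DG. Circles are rats below 9000, triangles rats from 9000, open symbols the 10 libraries nearer to another subfield by markers, and bars medians. Kcnq5 in CA3 splits by series (2080 to 3070 against 396 to 1560), and Kcnk16 and Kcnj4 in CA3 also differ between the circles and triangles.

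By family, where 14.1%, 26.4% and 27.9% of all genes were called in either direction between CA1 and CA3, CA1 and DG, and CA3 and DG, the voltage-gated Kcnh channels had 4 of 8 tested members higher and 1 lower in CA1 than in CA3, and 2 higher and 4 lower in CA3 than in DG. The 13 tested inward rectifiers had 5 higher and 1 lower in CA1 than in CA3 and 2 higher and 5 lower in CA3 than in DG. The 11 tested leak channels had 2 higher and 5 lower in CA3 than in DG. The 9 tested silent subunits had 3 higher and 4 lower in CA1 than in DG. All 3 tested BK genes were lower in CA1 than in DG, and all 3 tested SK genes (Kcnn1, Kcnn2, Kcnn3) were higher in CA3 than in DG. Kcnn1 averaged 249 ± 37.2 in CA3 and 196 ± 29.9 in DG, and Kcnn3 averaged 147 ± 48.1 and 115 ± 33.3. Within the series, Kcnn1 had 0.35 and 0.34 between CA3 and DG, the Kcnn2 row 0.47 and 0.4, and Kcnn3 0.16 (adjusted p = 0.228) and 0.52. Of the BK genes, Kcnmb2 had -0.23 and -0.54 between CA1 and DG and was called within neither series, and Kcnma1 was called there from 9000 alone. Of the 3 tested Kcne helpers and Kcnrg, none was called between subfields. Kcne1l was too low in the Ion Proton table to be tested there and so could not be called. In the Illumina table alone Kcne1l and Kcne2 passed between CA1 and either other subfield, Kcne4 between CA3 and DG, and Kcnrg between CA3 and either other subfield.

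Among the Kcnq genes, Kcnq3, a subunit of the M-channel, averaged 728 ± 149 in CA1, 643 ± 224 in CA3 and 883 ± 167 in DG. The call was between CA3 and DG (-0.49), with -0.51 and -0.46 in the series. Kcnip1, a helper of Kcnd channels typical of interneurons, averaged 125 ± 30.7 in CA1, 98.2 ± 24.8 in CA3 and 73.3 ± 19.4 in DG. The call was between CA1 and DG (0.77), with 1.03 and 0.47 in the series, and CA1 against CA3 went from 0.75 to -0.1, a called change. Kcnip1 in CA1 was lower from 9000, at -0.41 (adjusted p = 0.00255), and summed interneuron markers in CA1 had medians of 8470.8 below and 6528.9 from 9000. In CA3 their medians were 7704.3 and 7648.6, and DG had 6751.1 and 6390.6. Their part in these values was not tested. Kcnb2, a delayed rectifier, and Kcnk9, an acid-sensitive leak channel, were each called between CA3 and DG (-0.70 and -0.39). For Kcnb2 the difference was -1.26 below 9000 and -0.07 from 9000, and for Kcnk9 it was -0.95 and 0.24, with both changes called. The Kcnk9 call over all rats was lost when any 1 of 20 of the 34 rats was left out (-0.45 to -0.35).

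Several members of the panel were not called between subfields over all rats. Kcnc1 and Kcnc2 are Kv3 channels of fast-spiking cells. Across CA1, CA3 and DG, Kcnc1 averaged 1000 ± 154, 1060 ± 119 and 1020 ± 105, and Kcnc2 averaged 969 ± 262, 1020 ± 140 and 953 ± 124. Kcna2, an axonal delayed rectifier, averaged 455 ± 119, 530 ± 114 and 481 ± 99.2 in CA1, CA3 and DG. Kcnab2, a Kcna helper, averaged 4560 ± 619, 4590 ± 971 and 4720 ± 562 in the same order. Kcnip3 averaged 432 ± 79.4, 463 ± 145 and 477 ± 105. For each of these 5 the subfield difference was at most 0.24 on the log2 scale, the largest being that of Kcna2 between CA1 and CA3, which passed in the Illumina table alone. Within the series, Kcna2 was called below 9000 between CA1 and CA3 (-0.34) and between CA3 and DG (0.24). Between CA1 and CA3, Kcnip3 had 0.24 below 9000 and -0.41 from 9000, the latter called, and Kcnab2 had -0.19, called, and 0.24. Both changes between the series were called. Kcnj8, the vascular pore of the ATP-sensitive channel, averaged 56.9 ± 15.8, 42.9 ± 16.9 and 37.7 ± 12.3 and passed the threshold for CA1 in the Illumina table but not in the Ion Proton table.

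Kcnj13 and Kcne2, which are abundant in choroid plexus, were high in a few CA1 libraries. Kcnj13 had a CA1 median of 2.36 in old impaired and 2.04 in old unimpaired rats, with single libraries at 1030 and 1080. Its CA1 mean of 78.6 ± 251 thus rested on a few libraries, and Kcne2 had a CA1 mean of 34.5 ± 68.6. Summed choroid plexus markers in CA1 reached 152774.4 in rats from 9000 (median 615.6) and 11548.7 in rats below 9000 (median 68.5). Neither gene was called, and the part of this tissue in their values was not tested.

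The second comparison asked whether the subfield differences were the same in both rat number series. The difference from the series below 9000 to the series from 9000 was called for 30 of 79 members between CA1 and CA3 (38.0%, against 13.7% of all genes tested) and for 31 between CA3 and DG (39.2% against 16.8%). Between CA1 and DG it was called for 0 (against 0.106% of all genes), and in the Illumina table alone for 1, Kcnk16 (0.839%). Without the 10 libraries nearer to another subfield the counts were 31, 30 and 0 in the same order. Both comparisons with many calls thus held CA3. Of the members called over all rats, 20 of 26 between CA1 and CA3, 29 of 39 between CA1 and DG and 27 of 39 between CA3 and DG had a larger difference below 9000 (76.9%, 74.4% and 69.2%). Of all genes called over all rats, 84.9%, 62.3% and 68.3% did so. Their median size was 0.77 below and 0.29 from 9000 between CA1 and CA3, 0.65 and 0.47 between CA1 and DG, and 0.78 and 0.41 between CA3 and DG. Over all called genes these medians were 0.5 and 0.17, 0.35 and 0.31, and 0.42 and 0.24, also smaller from 9000.

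The direction was the same in both series for 22 of the 26 members called between CA1 and CA3, the exceptions being Kcna1, Kcnc4, Kcnh3 and Kcnk16. Between CA1 and DG it was the same for all 39. Between CA3 and DG it was the same for 36 of 39, the exceptions being Kcna3, Kcnk16 and Kcnk9. The share with 1 direction was 84.6% between CA1 and CA3 and 92.3% between CA3 and DG, against 78.7% and 87.5% of all called genes, and between CA1 and DG 99.5% of all called genes had 1 direction. Called within both series with 1 direction were 1 of 78 members between CA1 and CA3 (Kcnd2, 1.28% against 1.1% of all genes), 15 between CA1 and DG (19.2% against 8.11%) and 11 between CA3 and DG (14.1% against 5.38%). Between CA3 and DG, Kcna1, Kcnh3 and Kcnq5 were called within both series with opposite directions. The 15 included Kcnf1, Kcnh7, Kcnh8, Kcnk3, Kcnmb4, Kcnq5, Kcnt1 and Kcnt2.

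Compared directly within CA3, 39 members differed between the series (21 higher and 18 lower from 9000), or 49.4% against 22.5% of all genes. Within CA1 there were 9 (11.4% against 8.94%), and within DG also 9 (11.4% against 6.66%). Kcnh3 in CA3 ran from 348 through 725 to 996 below 9000 and from 924 through 1490 to 1970 from 9000, so that the series overlapped little. Its CA3 to DG difference was -1.04 and 0.37, both past the threshold in their series. Kcnt1 in CA3 ran from 206 through 431 to 640 below 9000 and from 497 through 772 to 1520 from 9000. Kcna1 in CA3 went the other way, from 588 through 777 to 955 below 9000 to 315 through 397 to 1100 from 9000. Kcnk1 in CA3 ran from 196 through 253 to 337 and from 280 through 379 to 660.

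Cell type markers in CA3 differed in level between the series. The summed CA1 markers in CA3 libraries had a median of 3627.1 (1306.2 to 7801.0) below 9000 and 7199.6 (2990.8 to 13076.5) from 9000, and in CA1 libraries 15334.3 and 12481.3. The summed CA3 markers in CA3 libraries had medians of 13115.6 and 10900.0, and the summed DG markers 533.0 and 927.9. Oligodendrocyte markers in CA3 had medians of 164939.6 and 116366.7, and they went the other way in CA1 (111477.5 and 190955.6) and DG (56977.8 and 122372.5). Pan-neuronal markers in CA3 had medians of 57341.2 and 41119.7, against 40977.3 and 37795.6 in CA1 and 46299.7 and 45172.5 in DG. Medians in CA3 were also higher from 9000 for markers of endothelium (1278.4 and 2042.9), pericytes (960.8 and 1478.3), choroid plexus (180.7 and 459.4) and thalamus and habenula (459.5 and 744.1). Library depth in CA3 had a median of 10401124 reads below 9000 and 9625570 from 9000 in the Illumina table. The part of each in the series difference was not tested, and the series cannot be told apart from any other feature that differed between these rats.

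**Figure D3:**
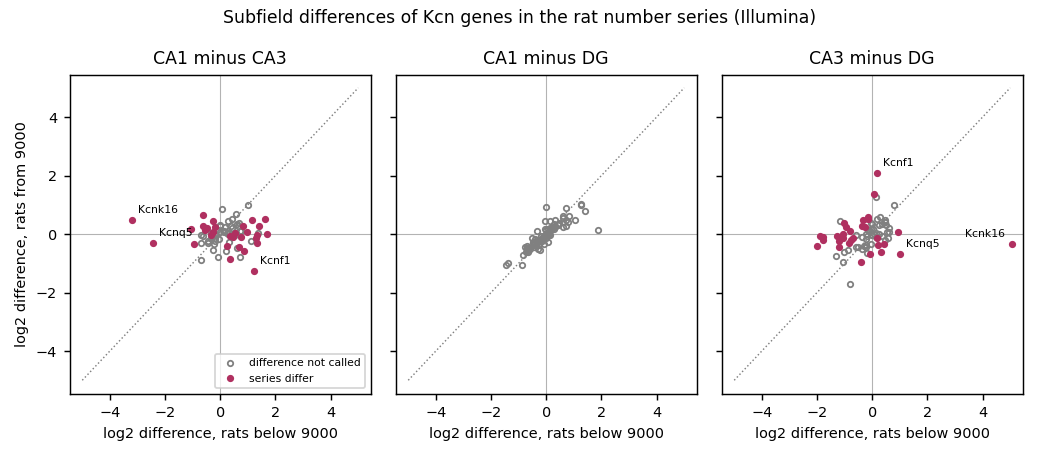
Each point is 1 tested member, with its log2 subfield difference in rats below 9000 (horizontal, n = 18 rats) and in rats from 9000 (vertical, n = 16 rats), in the Illumina table. Filled points differed between the series in both poly-A tables, and the dotted line marks equal values. Points follow the line between CA1 and DG (0 filled), but lie flat or across it in the comparisons that hold CA3 (30 and 31 filled).

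The third comparison asked whether members changed with age. Following the study's thresholds, a member was called at an unadjusted p under 0.01 in the Illumina table and a one-sided p under 0.05 of equal direction in the Ion Proton table. No member was called between old and young rats in CA1, CA3 or DG, against 0.824%, 0.365% and 1.06% of all genes tested. The counts were also 0 for old unimpaired against young (0.655%, 0.281% and 0.649% of all genes) and for old impaired against young (0.81%, 0.344% and 0.97%). No member passed an adjusted p of 0.05, and 44 genes in CA1 (0.31%), 0 in CA3 (0.0%) and 41 in DG (0.292%) did between old and young. With shares this small, a count of 0 does not set the members apart from all genes. At an unadjusted p under 0.05 in limma, CA1 had 5 members, CA3 had 1 and DG had 0 between old and young (6.11%, 3.28% and 5.16% of all genes). The counts were 1, 3 and 3 between old unimpaired and young (4.86%, 2.89% and 4.7%) and 8, 1 and 0 between old impaired and young (7.81%, 3.07% and 5.05%). With edgeR, Kcnj13 was called in CA3 between old and young, and with DESeq2 Kcnj13 was called in CA1. In DG all 78 tested members lay within 0.25 of 0 on the log2 scale between old and young, from -0.24 (Kcne1l) to 0.22 (Kcnj8).

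The member with the smallest Illumina p for age in CA1 was Kcne4, a helper that dampens Kcna channels. It ran from 34.3 through 44.9 to 55.6 in young rats, from 26.9 through 34.3 to 52.6 in old unimpaired rats and from 19.8 through 33.5 to 48.8 in old impaired rats. Young rats had the higher median, but the ranges overlapped. The log2 difference was -0.31 ± 0.12 between old and young (p = 0.0141, adjusted p = 0.579 by limma) and -0.38 ± 0.14 between old impaired and young (p = 0.00798, adjusted p = 0.427), with -0.41 in the Ion Proton table (p = 0.433). After quantile normalisation Kcne4 was called in both comparisons. Kcnt2 (-0.22) and Kcnj16 (0.23) followed between old and young, Kcnip3 (0.27) and Kcnt2 (-0.29) between old impaired and young, and Kcnj11 (-0.24) and Kcne1l (-0.33) between old unimpaired and young. Their adjusted p lay between 0.444 and 0.999.

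In CA3, Kcne4 also had the smallest Illumina p between old and young (-0.31, p = 0.032) and between old impaired and young (-0.37, p = 0.0262). Kcnk4, a mechanosensitive leak channel, differed by 0.34 (p = 0.0784) and Kcnc1 by 0.11 (p = 0.0804) between old and young. Kcnmb4 (0.23, p = 0.029), Kcnj11 (0.36, p = 0.0299) and Kcnk4 (0.44, p = 0.0461) stood first between old unimpaired and young. Kcna4 (0.3) and Kcnip1 (-0.27) followed Kcne4 between old impaired and young. In DG the smallest p included those of Kcnj14 (-0.1) and Kcnip3 (0.18) between old and young, of Kcnk12 (0.32, p = 0.0297) and Kcnh3 (0.32) between old unimpaired and young, and of Kcnj14 (-0.12), Kcnc2 (0.14) and Kcnv1 (0.19) between old impaired and young. All had an adjusted p of at least 0.991.

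The fourth comparison set old impaired against old unimpaired rats. In CA1, 3 members were called, Kcnk1, Kcnip3 and Kcnc4, all higher in impaired rats, or 3 of 79 against 0.585% of all genes (83 of 14191). In CA3, 0 were called (0.0351% of all genes), and in DG 1, Kcnq5 (0.136%). None passed an adjusted p of 0.05 in the Illumina table, where 0 genes did in CA1, CA3 or DG (0.0% of all genes tested by limma). At an unadjusted p under 0.05, CA1 had 10 members, CA3 had 3 and DG had 5 (6.05%, 1.75% and 3.6% of all genes). By the unadjusted thresholds used for age, the difference itself differed between CA1 and CA3 for 2 members (0.36% of all genes). It did so between CA1 and DG for 1 (0.155%) and between CA3 and DG for 0 (0.0282%). None of these passed the adjusted p of 0.05 set for this test.

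Kcnk1, a leak channel, ran from 454 through 500 to 753 in impaired, from 289 through 418 to 556 in unimpaired and from 335 through 457 to 714 in young rats in CA1. Impaired rats stood high, with their lowest library above the unimpaired median, although the groups overlapped. The difference was 0.34 ± 0.104 on the log2 scale (p = 0.00258, adjusted p = 0.628 by limma), and 0.29 in the Ion Proton table (one-sided p = 0.0235). It was 0.16 (p = 0.143) in rats below 9000 and 0.56 (p = 0.00402) in rats from 9000. The Ion Proton table had -0.03 (p = 0.875) below 9000 and 0.68 (p = 0.00459) from 9000, so its retest did not pass in the first series. The call was lost when either of 2 rats from 9000 was left out, with differences no lower than 0.29. In CA3 and DG the difference was -0.21 and -0.24. The DG difference was -0.09 (p = 0.441 by limma) in rats below 9000 and -0.45 (p = 0.0308) in rats from 9000. The Ion Proton table also had -0.09 and -0.45. The CA1 difference exceeded that of CA3 by 0.55 (p = 0.00487, adjusted p = 0.907) and that of DG by 0.58 (p = 0.00298, adjusted p = 0.999) in the interaction test.

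Kcnip3, a calcium-binding helper of Kcnd channels also known as calsenilin, ran from 367 through 501 to 559 in impaired, from 302 through 379 to 528 in unimpaired and from 256 through 426 to 595 in young rats in CA1. Most impaired libraries lay above the unimpaired median, and the groups overlapped. The difference was 0.29 ± 0.0959 (p = 0.00426, adjusted p = 0.668 by limma), and 0.27 in the Ion Proton table. It was 0.21 and 0.36 in the series, and 0.06 (p = 0.753) and 0.49 (p = 0.0487) in the Ion Proton table. In DG the Kcnip3 difference was 0.17 and -0.33 in the series. The call was lost when any 1 of 8 rats was left out, with differences of 0.26 to 0.33 over all rats left out in turn, and without the libraries nearer to another subfield (0.26, p = 0.0102).

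Kcnc4 in CA1 ran from 743 through 1200 to 1510 in impaired, from 418 through 762 to 1510 in unimpaired and from 521 through 1060 to 1290 in young rats. Most unimpaired libraries lay below the impaired median and the others within the impaired range, and the young median stood between. The difference was 0.51 ± 0.168 (p = 0.00491, adjusted p = 0.668 by limma). It was 0.09 (p = 0.614) in rats below 9000 and 0.95 (p = 0.000658) in rats from 9000, and -0.05 (p = 0.858) and 0.98 (p = 0.00176) in the Ion Proton table, so the call over all rats rested on the second series. In DG of the rats from 9000 the difference had the other sign, at -0.75 (p = 0.0305), and -0.81 (p = 0.0224) in the Ion Proton table. The call was also lost when either of 2 rats from 9000 was left out (0.42 at the lowest) and without the libraries nearer to another subfield (0.46, p = 0.0106). Summed DG markers in CA1 had medians of 2595.2 (706.9 to 4132.6) in impaired and 2059.9 (544.0 to 3530.1) in unimpaired rats, and summed CA1 markers 13664.0 (9581.6 to 15934.7) and 16034.6 (2554.8 to 25259.7). Summed thalamus and habenula markers in CA1 had medians of 965.9 (508.4 to 3997.6) in impaired and 749.0 (391.9 to 1528.2) in unimpaired rats. Over all rats Kcnk1 and Kcnc4 were both higher in DG than in CA1, a difference called below 9000 but not from 9000. The part of these markers in the values of both genes was not tested.

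Kcnq5 in DG ran from 990 through 1500 to 2060 in impaired, from 909 through 1230 to 1620 in unimpaired and from 892 through 1490 to 1850 in young rats. Unimpaired rats had the lowest median, with wide overlap. Summed CA3 markers in DG had medians of 7670.0 (5875.7 to 13381.8) in impaired, 6784.2 (4156.7 to 9541.7) in unimpaired and 7420.2 in young rats, and their part in these values was not tested. The difference was 0.36 ± 0.121 (p = 0.00534, adjusted p = 0.999 by limma), and 0.4 in the Ion Proton table (p = 0.00976). It was 0.28 and 0.49 in the series. The call was lost when any 1 of 7 rats was left out (p up to 0.0123), with differences of 0.32 to 0.41 over all rats left out in turn, and without the libraries nearer to another subfield (0.25, p = 0.0615). In CA1 the Kcnq5 difference within rats from 9000 had the other sign, at -0.67 (p = 0.00573).

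Members near to a call in CA1 were Kcnj12 and Kcnab2. Kcnj12 ran from 107 through 166 to 225 in impaired and from 78.3 through 115 to 171 in unimpaired rats, a difference of 0.4 (p = 0.00299) that the Ion Proton table did not retest (0.33, p = 0.149). Kcnab2 ran from 3230 through 4260 to 5030 in impaired and from 3410 through 4890 to 6100 in unimpaired rats, a difference of -0.2 (p = 0.00987) with a one-sided p of 0.0528 in the Ion Proton table. In CA3 the smallest p were those of Kcnip1 (-0.35, p = 0.0178), Kcnd3 (0.29, p = 0.0299) and Kcnmb4 (-0.2, p = 0.0441). In DG they were, after Kcnq5, those of Kcne4 (0.33, p = 0.016) and Kcnh7 (-0.42, p = 0.0413). For Kcnmb4 the CA1 difference (0.16) exceeded that of CA3 by 0.36 (p = 0.00294, adjusted p = 0.907).

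**Figure D4:**
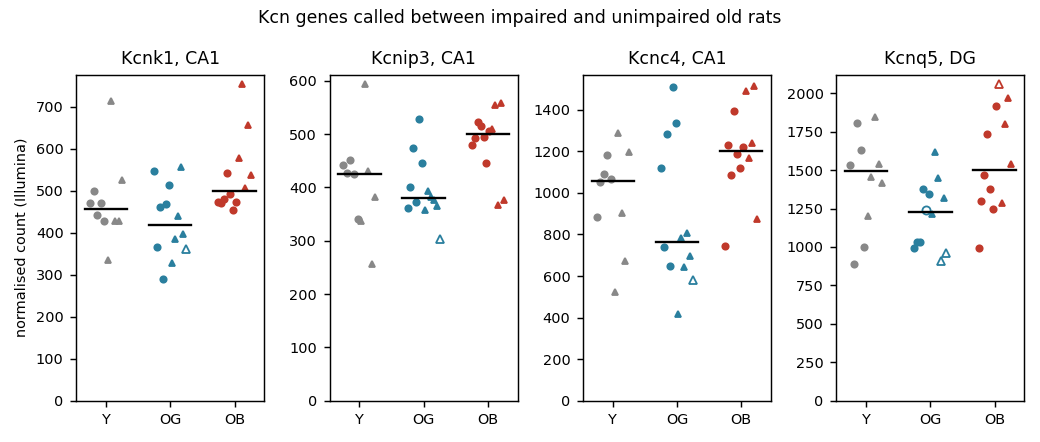
Normalised counts per Illumina library of the members called between impaired (OB) and unimpaired (OG) old rats, beside young rats (Y). Circles are rats below 9000, triangles rats from 9000, open symbols libraries nearer to another subfield, and bars medians. In CA1 the impaired medians of Kcnk1 (500), Kcnip3 (501) and Kcnc4 (1200) stand above the unimpaired medians (418, 379 and 762), and the points of the groups overlap.

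**Figure D5:**
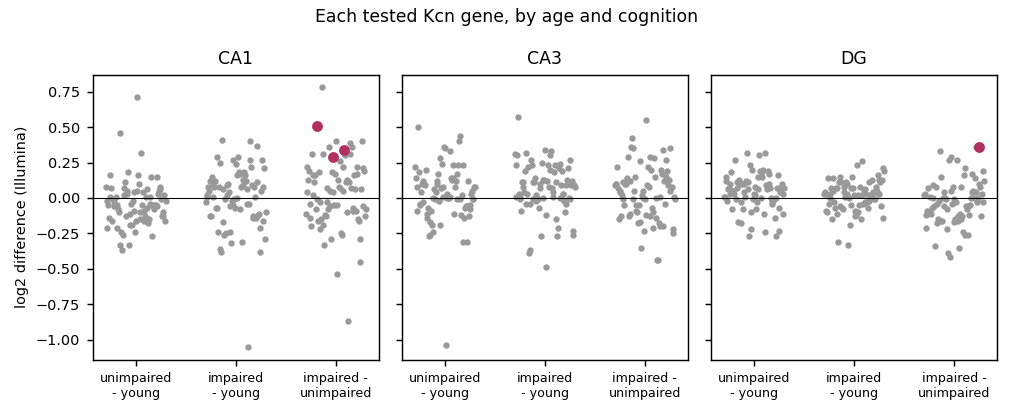
Log2 difference of each tested member between the groups of rats, within CA1 (79 members), CA3 (79) and DG (78), in the Illumina table. Large red points are the 3 members called in CA1 and the 1 called in DG. In DG the points of old unimpaired against young rats lie between -0.27 and 0.32. Those of old impaired against young rats lie between -0.33 and 0.26.

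Partners of potassium channels outside the Kcn symbols were counted from a list of 22 genes, of which 21 were listed and 18 tested. Between CA1 and CA3, 4 were higher and 1 lower in CA1, between CA1 and DG 4 and 4, and between CA3 and DG 3 higher and 6 lower in CA3, where 14.1%, 26.4% and 27.9% of all genes were called in either direction. Dpp6, a helper of Kcnd channels, averaged 2940 ± 366 in CA1, 2430 ± 398 in CA3 and 2980 ± 267 in DG, an order it had in common with Kcnd2 in being lowest in CA3. Its relative Dpp10 had the opposite order, at 308 ± 108, 397 ± 109 and 224 ± 116. Lgi1, a secreted partner of Kcna channels, averaged 1560 ± 301 in CA1, 1650 ± 410 in CA3 and 2690 ± 511 in DG. None of the 18 was called for age or cognition in any subfield.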

How the data were processed

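RNA of CA1, CA3 and DG from 34 rats was sequenced as poly-A libraries on Illumina and Ion Proton, and in a further table named WT whose library type and aligner are not given in the sources used here. The authors deposited normalised counts (a signal, gene counts divided by a DESeq2 1.16.1 size factor per library) against rn5. Illumina reads had been made with bcl2fastq 2.17, trimmed with cutadapt 1.8.3 and aligned with STAR 2.5, Ion Proton reads with TopHat2 and Bowtie2, and both counted with featureCounts 1.4.4. The labels and the methods name different library kits, so whether counting used strand is not known here. Dividing by the smallest step recovered whole reads for 100.0% of values above 0 (within 0.001 reads), which gave the depth of each library.

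Genes with a mean of at least 10 normalised counts were fitted in R 4.3.3 with limma 3.58.1 (trend) on log2(value + 1), a scale that understates the change of low genes, with p-values adjusted by Benjamini-Hochberg over all genes tested. Subfield calls needed an adjusted p under 0.05 in both poly-A tables. Age and cognition calls, fitted within a subfield over its 34 libraries and 3 groups, needed p under 0.01 in Illumina and a one-sided p under 0.05 in Ion Proton, which holds the same rats' RNA and so is a technical retest. Recovered reads were also tested with edgeR 4.0.16 quasi-likelihood and DESeq2 1.42.0. Further alternatives were another pseudocount (0.1), no filter, quantile normalisation, the WT table as second table, the rat as block or its number series as covariate, and each rat left out. Fits within each number series, and without the 10 libraries nearer to another subfield, were added after seeing the data. The scripts were tested on simulated data.

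Samples were grouped by their labels. The subfields came from the same animal, so the rat pairs them: deviations of a rat's libraries from their group means had a median correlation of 0.09 between CA1 and CA3, 0.19 between CA1 and DG and -0.03 between CA3 and DG. Members and gene lists were chosen with earlier results of these data known. Named were the 5 leading members higher and lower in each subfield, members called for age or cognition or with the 3 smallest p there, and a panel of channels of hippocampal neurons and glia. Some genes that these rules name are not reported here.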

Additional observations from a re-analysis of the deposited data

Results flagged for a closer look

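Over independent groups, chance gives about 1 in 20 by Dixon's test, but the groups here reuse the same young libraries. In 10 of 87 young groups of members examined (11.5%), 1 library stood apart from the other 9. In DG, 5 of these were in the library of 1 young rat, which had 1380 normalised counts of Kcnab1 against 1830 in the nearest library, 644 of Kcng1 against 1130, 408 of Kcnh3 against 1110, 265 of Kcnj4 against 787 and 783 of Kcnt1 against 421. Another young rat had 714 of Kcnk1 in CA1, above every other young library, 814 of Kcnmb4 in CA1 against 599, and 631 of Kcnk2 in CA3 against 244. These rats had numbers from 9000. Single libraries of 2 further young rats had 110 of Kcnh6 in CA1 against 62.4 and 193 of Kcns2 in CA3 against 129.

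The difference between impaired and unimpaired old rats was not the same in each subfield for 2 members at an unadjusted p under 0.01 that the Ion Proton table retested. For Kcnk1 the log2 difference in CA1 exceeded that in CA3 by 0.55 (p = 0.00487, adjusted p = 0.907 by limma) and that in DG by 0.58 (p = 0.00298, adjusted p = 0.999). For Kcnmb4 it exceeded that in CA3 by 0.36 (p = 0.00294, adjusted p = 0.907). None passed the adjusted threshold.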

How the results depend on the processing

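The counts between subfields were 26, 39 and 39 (CA1 to CA3, CA1 to DG, CA3 to DG), and 12, 15 and 20 members were specific to CA1, CA3 and DG. With the rat as replicate block they were 32, 41 and 41, and the block changed no call of a named member. Leaving out 1 rat at a time gave 25 to 32, 38 to 41 and 37 to 41, and 11 to 15, 14 to 18 and 20 to 22 specific members. With the WT values in place of Ion Proton, 20 members were specific to CA1. Below 9000, 41 differed between CA1 and CA3 and 13 were specific to DG. From 9000, 9 differed between CA1 and CA3 and 22 between CA1 and DG, while 3 were specific to CA1 and 5 to CA3. Of all genes called between CA1 and CA3 over all rats, 84.9% also had a larger difference below 9000. From 9000 the sign turned for Kcna1 (0.16), Kcnc4 (-0.14), Kcnh3 (-0.02) and Kcnk16 (0.48) between CA1 and CA3, and for Kcna3 (0.01), Kcnk16 (-0.34) and Kcnk9 (0.24) between CA3 and DG. The cause was not tested.

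For age, where 0 members were called, quantile normalisation called 1 in CA1 between old and young and 1 between impaired and young (Kcne4 in both). With edgeR, 1 (Kcnj13) was called in CA3 in each age comparison. With DESeq2, 1 (Kcnj13) was called in CA1 between old and young and between unimpaired and young, and 1 (Kcnk4) in CA3 between unimpaired and young. Without the libraries nearer to another subfield, 1 was called in CA1 between impaired and young (Kcnip3) and 1 in CA3 between unimpaired and young (Kcnmb4). From 9000, 1 (Kcnj16) was called in CA1 between old and young and between impaired and young, 2 (Kcnc4 and Kcnj10) in CA3 between old and young and 1 (Kcnc4) between impaired and young. With 1 rat left out the counts were 0 to 1 in CA1 between old and young, 0 to 3 between impaired and young and 0 to 1 in CA3 between unimpaired and young, and 0 in the other age comparisons.

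For impaired against unimpaired rats, the counts of 3, 0 and 1 in CA1, CA3 and DG became 2 to 6, 0 to 1 and 0 to 2 with 1 rat left out. Below 9000 they were 0 in CA1 and 0 in DG, and without the libraries nearer to another subfield 0 in DG. DESeq2 called 2 in DG (Kcnh7 and Kcnq5). Depth limits the members with few reads, such as Kcnk16 and Kcnh8, most.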
